A study of Mus musculus with 8 samples.

Results

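Levels of 10 genes of the piRNA pathway and of germ granules were followed in mouse oocytes grown in culture from stem cells. The 10 genes, chosen by symbol from the table of 55385 genes, were Piwil2, Ddx4, Mov10l1, the Tudor domain genes Tdrd1, Tdrd5, Tdrd7, Tdrd9 and Tdrkh, and Mael and Asz1. Each had 1 row, and all 10 passed the filter on low counts that left 14929 genes for testing. The oocytes came from 2 XX embryonic stem cell lines of C57BL/6 x 129/SvJ background, both carrying Blimp1-mVenus and Stella-ECFP reporters. The line called sex-converted was made from cells of a male, per the title of the study, and the line called native was XX without conversion. Each condition therefore rests on a single cell line, and a difference between the lines cannot be told apart from a difference between any other pair of lines. All oocytes grew with somatic cells of female gonads from embryonic day 12.5, through a differentiation culture of 21 days and a growth culture of 11 days. Germinal vesicle (GV) oocytes, which are arrested in the first meiotic prophase, were taken at that point. Metaphase II (MII) oocytes, which are mature eggs, were taken after 16 more hours in maturation medium. Oocytes positive for the Stella reporter were pooled, 31 to 158 per library at GV and 35 to 58 at MII, and each line had 2 libraries at each stage, described as biological duplicates. With no record of separate cultures, p-values measure the spread between these libraries.

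PIWI-interacting RNAs (piRNAs) are short RNAs that guide PIWI proteins to the transcripts of transposons in germ cells. Long precursor transcripts are unwound and cut at the surface of mitochondria, loaded onto PIWI proteins and trimmed, and this takes place in germ granules, which are bodies of RNA and protein held together by Tudor domain proteins that bind methylated arginines of PIWI proteins. In mice the pathway is best known in the testis, where loss of most of these genes stops sperm formation, while females without them are usually fertile.

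The libraries held 10306471 to 14999003 reads. Oocyte genes were abundant throughout, with all 12 markers of the oocyte list detected in every library at a summed level of 15750 to 20530 CPM. CPM are read counts brought to a common library size and scaled by the trimmed mean of M-values (TMM) so that the bulk of genes balances between libraries. Markers of somatic cells were present at lower levels, and with TMM their summed levels were higher at MII than at GV. The summed level of 15 granulosa and cumulus markers was 56.5 to 78.5 CPM at GV and 117 to 146 CPM at MII. Of these, Cyp19a1 went from 17.4 ± 2.85 CPM in native GV to 56.6 ± 9.80 CPM in native MII oocytes and Kitl from 4.20 ± 1.46 to 22.9 ± 2.44 CPM (SD, n = 2 each). Nr5a2, with 244 to 851 reads in each library, went the other way in the native line, from 39.3 ± 11.4 to 26.2 ± 2.88 CPM. Fshr also went down, from 0.582 ± 0.272 CPM in native GV oocytes to 0 in native MII oocytes. Foxl2 and Amh had at most 10 and 1 reads. The summed level of 11 stromal and theca markers was 1.34 to 2.21 CPM at GV and 3.61 to 19.8 CPM at MII, led by Vim with 1 to 175 reads. Acta2 had 0 reads at GV and up to 35 at MII, and Col1a2 and Lum had 0 in all libraries. The 7 endothelial and blood markers summed to 62.2 to 90.8 CPM at GV and 192 to 278 CPM at MII, mostly Pecam1, with Hba-a1 at 0 reads. Among them Tie1 went down, from 2.4 ± 1.58 CPM in native GV to 0.143 ± 0.203 CPM in native MII oocytes. These marker levels depend on the scaling, and the sums were not taken with library totals in place of TMM. With library totals Cyp19a1 was at 5.21 CPM per kilobase of exon in native GV and 9.0 in native MII oocytes. On that scale Kitl was at 0.958 and 2.8, and Nr5a2 at 9.0 and 3.2. The part of these markers in the changes below was not tested. The 7 markers of spermatogenic cells summed to 0.951 to 5.90 CPM, with up to 83 reads of Prm2, 2 to 22 of Spaca1, up to 16 of Acrv1 and 0 of Tnp1 and Tnp2. At GV the replicate libraries of a line differed in a way that crossed the lines, since over 7683 genes the deviations of same-numbered libraries correlated at -0.751 between the lines.

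From GV to MII, 8 of the 10 genes fell in the native line and 1 rose. Of all 14929 tested genes 65.2% were called there, 35.7% lower and 29.6% higher. In the sex-converted line 7 of the 10 fell and 1 rose, beside 65.5% of all tested genes called, 36.2% lower and 29.3% higher. Ddx4 was the gene that rose in both lines, and the 5 Tudor domain genes and Mael fell in both. For the 10 genes the median change of MII over GV was -1.49 (native) and -1.45 (sex-converted) on the log2 scale, beside -0.31 and -0.35 for all tested genes. The median absolute change of the 10 was 1.49 and 1.45, beside 1.63 for all tested genes in each line. Calls are at an adjusted p under 0.05 in edgeR's quasi-likelihood test, with p adjusted over all tested genes. Each change is relative to the other mRNAs, and in pooled oocytes less RNA per cell and fewer cells with the RNA cannot be told apart. The libraries were made from polyadenylated RNA, so a loss of mRNA and a shortening of its poly(A) tail cannot be told apart either.

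The 3' untranslated region of an oocyte mRNA holds signals for tail length. Tail length was not measured here, and the sequences below describe the transcripts without separating the 2 kinds of change. The cytoplasmic polyadenylation element (CPE) is bound by CPEB proteins and can direct tail lengthening during maturation, and it works together with the nearby poly(A) signal AATAAA or ATTAAA. The last 100 bases of the main annotated transcript of each gene (GENCODE M21, GRCm38, sense strand) were searched for TTTTAT or TTTTAAT as the CPE. Ddx4 alone of the 10 genes held one, ending 50 bases before the transcript's end, and its AATAAA ended 23 bases before it. The lines below give that site of Ddx4 and, for contrast, the poly(A) signals of Tdrd1 and Mael, which fell most steeply in the native line together with Tdrd5. Capitals mark the CPE in the first line and the poly(A) signal in the others.
Ddx4: acaaatgtttgcTTTTATaatatacagatt
Tdrd1: ttgtcctgattcaggcAATAAAgccacttg
Mael: ggaaactatttcatagATTAAAagtaattg
They lie at chr13:112598371-112598400 on the minus strand, chr19:56869972-56870001 on the plus strand and chr1:166201398-166201427 on the minus strand, each in the 3' untranslated region of its gene. Of the 10 genes, Tdrd5 was without either poly(A) signal in this window.

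Over 12556 tested genes with a coding transcript, 19.2% held a CPE of these letters in the last 100 bases. The share was 32.4% of 3963 genes that rose in the native line, 10.1% of 4623 that fell and 16.5% of 3970 that were not called. A further 31 genes of the pathway are described below, and 25 of them were tested. Among the 10 genes and these 25, 4 of 6 that rose in the native line held one (Ddx4, Gtsf2, Mybl1 and Nanos2), as did 2 of 22 that fell (Henmt1 and Ddx25) and 0 of 7 that were not called. In the sex-converted line the counts were 4 of 7, 2 of 19 and 0 of 9. Over the tested genes with a coding transcript the shares in that line were 32.6%, 10.1% and 16.7%. The annotated ends may differ from those used in oocytes, and a match of letters does not show that a site is used.

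Ddx4 encodes the mouse Vasa protein, a DEAD box RNA helicase that is a defining component of germ granules and a standard marker of germ cells. The gene (ENSMUSG00000021758.14) lies at chr13:112598333-112652475 on the minus strand. Its level was 65.1 and 48.8 CPM in native GV oocytes and 131 and 133 CPM in native MII oocytes. In the sex-converted line it was 73.0 and 66.6 CPM at GV and 147 and 177 CPM at MII. All 4 MII libraries lay above all 4 GV libraries. The share of all tested genes without overlap between the stages was not counted. A lack of overlap, for Ddx4 and for the genes below, thus does not set a gene apart from the rest. The log2 fold change of MII over GV was 1.21 (SE 0.209, edgeR adjusted p = 0.000395) in the native and 1.22 (SE 0.208, edgeR adjusted p = 0.00037) in the sex-converted line, or 2.32-fold and 2.33-fold. Of all tested genes 74.5% in the native and 75.2% in the sex-converted line had a log2 fold change at or below that of Ddx4. The rise of Ddx4 depends on the scaling. With library totals in place of TMM the median over the tested genes shifted by -0.908 in the native and by -0.933 in the sex-converted line, and that of Ddx4 became 0.30 (edgeR adjusted p = 0.208) and 0.28 (edgeR adjusted p = 0.243). On that scale the share of higher genes among those called was 24.6% in place of 45.3% in the native line and 23.4% in place of 44.7% in the sex-converted line. The counts among the 10 genes became 0 higher and 8 lower, and 0 higher and 9 lower. Beside these, of all 14929 tested genes 2488 were called higher and 7614 lower in the native line, and 2372 and 7785 in the sex-converted line.

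Tdrd1 encodes a Tudor domain protein that binds PIWI proteins and is needed for the assembly of piRNA granules. It had the highest level of the 10 genes at GV and the largest change. The gene (ENSMUSG00000025081.13) lies at chr19:56826209-56870012 on the plus strand. Its level was 374 and 321 CPM in native and 309 and 316 CPM in sex-converted GV oocytes. At MII it was 47.6 and 36.8 CPM in the native and 52.4 and 38.1 CPM in the sex-converted line. Every MII library was thus far below every GV library. Tdrd1 fell by 3.04 on the log2 scale in the native line (SE 0.226, edgeR adjusted p = 1.27e-06), which is 8.22-fold, and by 2.79 in the sex-converted line (SE 0.224, edgeR adjusted p = 1.92e-06), which is 6.90-fold. Its pattern over the 8 libraries was most like that of Slc38a9, Phka2 and Mocs2 among 7682 other genes at a mean of at least 10 CPM. The distances between centred log2 levels were 0.241, 0.309 and 0.314, and since stage was shared by all libraries of a group, many genes that fell about as far have near values.

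Tdrd5, whose product has Tudor and LOTUS domains and acts in granule assembly and the making of piRNAs in the testis, followed Tdrd1 closely. It stood at 196 and 161 CPM in native GV oocytes and at 30.5 and 22.9 CPM in native MII oocytes. The sex-converted libraries were at 173 and 169 CPM at GV and 32.6 and 23.7 CPM at MII. The stages did not overlap, and Tdrd5 fell by 2.74 (SE 0.242, edgeR adjusted p = 3.42e-06) and 2.60 (SE 0.241, edgeR adjusted p = 4.72e-06) on the log2 scale in the native and sex-converted lines. An antisense gene, 4930518J20Rik, shares 176 exon bases with it and had at most 22 reads, against 198 or more for Tdrd5.

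Tdrd7, a granule scaffold protein gene that also acts in the lens of the eye, was expressed at a lower level. It had 377 and 282 reads in native GV oocytes (21.0 and 19.8 CPM) and 37 and 46 reads at MII (3.53 and 5.32 CPM). Sex-converted oocytes had 327 and 397 reads at GV (19.5 and 19.3 CPM) and 34 and 26 at MII (3.72 and 2.47 CPM). Tdrd7 fell 4.63-fold (log2 fold change -2.21, SE 0.33, edgeR adjusted p = 0.000138) and 6.28-fold (log2 fold change -2.65, SE 0.34, edgeR adjusted p = 4.53e-05).

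Tdrd9, which encodes an RNA helicase with a Tudor domain that works with the nuclear PIWI protein of the fetal testis, and Tdrkh, which encodes a Tudor protein of the mitochondrial surface that helps trim piRNAs, fell by less. Tdrd9 was at 16.8 and 16.4 CPM in native and 20.0 and 16.1 CPM in sex-converted GV oocytes, and at 7.16 and 4.4 CPM and 8.32 and 6.18 CPM at MII. It fell 2.86-fold in the native (edgeR adjusted p = 0.00201) and 2.49-fold in the sex-converted line (edgeR adjusted p = 0.00437). Tdrkh was at 81.4 and 62.0 CPM in native and 70.2 and 78.1 CPM in sex-converted GV oocytes, and at 28.7 and 23.1 CPM and 28.4 and 34.9 CPM at MII. It fell 2.76-fold (edgeR adjusted p = 0.000277) and 2.34-fold (edgeR adjusted p = 0.00089). Neither gene overlapped between the stages. Tdrkh shares 2255 exon bases with the oppositely transcribed Oaz3, which had at most 20 reads, so that their reads in the overlap cannot be fully told apart if strand was not used in counting.

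Mael encodes Maelstrom, a granule protein with an HMG box that is needed for transposon silencing and piRNA production. At GV its level was 84.2 and 72.8 CPM in the native line and 51.9 and 83.7 CPM in the sex-converted line, where replicate 1 lay apart from the other 3 GV libraries. At MII it was 13.4 and 9.95 CPM in the native and 12.4 and 15.7 CPM in the sex-converted line. All MII libraries lay below all GV libraries. The log2 fold change was -2.75 (SE 0.30, edgeR adjusted p = 1.45e-05) in the native and -2.27 (SE 0.293, edgeR adjusted p = 4.76e-05) in the sex-converted line.

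Asz1 encodes GASZ, an ankyrin repeat protein that anchors granules at mitochondria. It was called lower at MII in the native line alone, but the lines were not shown to differ. Its level in the native line was 72.0 and 55.9 CPM at GV and 29.7 and 35.8 CPM at MII, with a log2 fold change of -0.97 (SE 0.251, edgeR adjusted p = 0.00564). In the sex-converted line it was 37.4 and 52.7 CPM at GV and 33.1 and 36.6 CPM at MII, where the log2 fold change was -0.37 (95% interval -0.92 to 0.178, edgeR adjusted p = 0.208). The difference of the 2 changes, sex-converted less native, was 0.60 on the log2 scale (95% interval -0.18 to 1.37, edgeR adjusted p = 1). Leaving out native GV replicate 1 removed the native call (log2 fold change -0.74, edgeR adjusted p = 0.0509), and with library totals as the scaling the fall was called in the sex-converted line as well (log2 fold change -1.30, edgeR adjusted p = 0.000752).

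Mov10l1, the RNA helicase that feeds piRNA precursors into processing, and Piwil2, the PIWI protein Mili that binds the primary piRNAs of the fetal and adult germ line, were the least abundant of the 10 genes. Mov10l1 had 101 and 68 reads in native and 99 and 74 in sex-converted GV oocytes, and 24 and 17 and 30 and 34 reads at MII. It fell 2.43-fold in the native line (log2 fold change -1.28, SE 0.417, edgeR adjusted p = 0.0185), and this call was lost without native GV replicate 1 (adjusted p = 0.0811), native MII replicate 1 (0.0512) or native MII replicate 2 (0.0805). In the sex-converted line its log2 fold change was -0.54 (95% interval -1.42 to 0.343, edgeR adjusted p = 0.254), or -1.48 (edgeR adjusted p = 0.00727) with library totals as the scaling. Its line by stage difference was 0.74 (95% interval -0.527 to 2.01).

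Piwil2 had 24 and 31 reads in native GV oocytes, 56 and 67 in sex-converted GV oocytes, 12 and 12 in native MII oocytes and 16 and 5 in sex-converted MII oocytes. The GV reads of the sex-converted line were above all others, and native GV and MII oocytes differed little after scaling, at 1.34 and 2.18 CPM against 1.15 and 1.39 CPM. Its log2 fold change was -1.58 in the sex-converted line (SE 0.618, edgeR adjusted p = 0.0416) and -0.47 in the native line (95% interval -1.84 to 0.908, edgeR adjusted p = 0.529). The former call was lost in DESeq2 (adjusted p = 0.0751), with the replicate number as a block (edgeR adjusted p = 0.0612) and without sex-converted GV replicate 1 (edgeR adjusted p = 0.0932) or 2 (edgeR adjusted p = 0.0964). The log2 fold change was -0.91 (edgeR adjusted p = 0.264) without sex-converted MII replicate 2 and -2.78 (edgeR adjusted p = 0.0121) without replicate 1. The line by stage difference was -1.12 (95% interval -3.06 to 0.823).

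**Figure D1:**
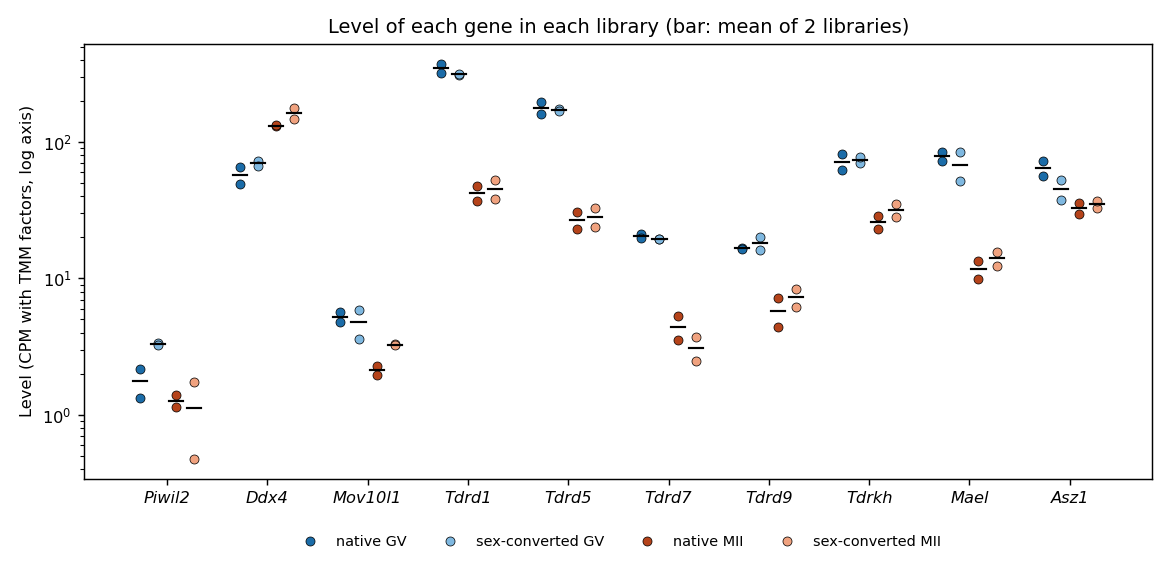
Level of each of the 10 genes in CPM with TMM factors, on a log axis, in each of the 8 libraries (points), with the mean of the 2 libraries of a group as a bar. Ddx4 is the gene whose 4 MII libraries all lie above its 4 GV libraries, while Tdrd1 goes from 309 to 374 CPM at GV to 36.8 to 52.4 CPM at MII.

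**Figure D2:**
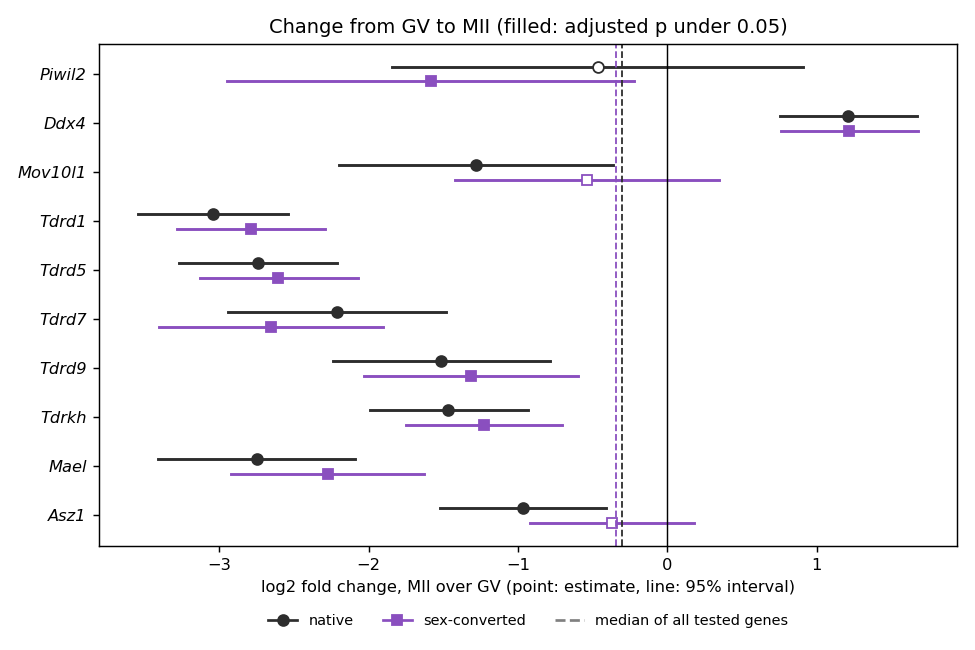
Log2 fold change of MII over GV for each gene in the native (circles) and sex-converted (squares) lines, with 95% intervals from edgeR, filled where called and open where not, and dashed lines at the median of all 14929 tested genes. The 5 Tudor domain genes and Mael lie left of both medians with intervals that do not reach them, and Ddx4 lies right of 0 at 1.21 and 1.22.

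Because one gene rose and others fell, the order of the genes by level changed with stage. Levels of different genes were compared per kilobase of exon. In native GV oocytes Tdrd1 was highest at 63.8 ± 6.96 CPM per kilobase and Mael next at 45.3 ± 4.62 (SD, n = 2 each). Tdrd5 at 25.7 ± 3.56, Asz1 at 22.6 ± 4.04 and Ddx4 at 18.9 ± 3.82 CPM per kilobase followed, and the libraries of Asz1 overlapped those of both its neighbours. Tdrkh at 11.7 ± 2.23, Tdrd7 at 5.16 ± 0.206, Tdrd9 at 3.07 ± 0.0556, Mov10l1 at 1.24 ± 0.142 and Piwil2 at 0.333 ± 0.113 came next, and the libraries of these neighbours did not overlap. The order in sex-converted GV oocytes was the same except that Ddx4, at 23.2 ± 1.51 CPM per kilobase, stood above Asz1, at 15.9 ± 3.81. The place of Tdrd5 depends on the length used. Per kilobase of the longest transcript, Tdrd5 stood above Mael, at 47.5 ± 6.56 against 46.4 ± 4.74 in native GV oocytes. In sex-converted GV oocytes it was 45.5 ± 0.757 against 40.1 ± 13.3.

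At MII the order was led by Ddx4, at 43.7 ± 0.523 CPM per kilobase in the native and 53.8 ± 7.05 in the sex-converted line (SD, n = 2 each). Asz1 was second at 11.6 ± 1.51 and 12.3 ± 0.888 CPM per kilobase, and its libraries did not overlap those of Ddx4 or of Tdrd1. Tdrd1 (7.75 ± 1.40 in the native line) and Mael (6.73 ± 1.39) overlapped each other, as did Tdrkh (4.22 ± 0.645) and Tdrd5 (3.85 ± 0.770). Per kilobase of the longest transcript, the native MII means were 7.1 for Tdrd5, 6.9 for Mael and 4.56 for Tdrkh, so this order too depends on the length used. Piwil2 remained last at 0.240 ± 0.0325 CPM per kilobase in the native and 0.211 ± 0.171 in the sex-converted line.

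Shares within a library do not depend on the scaling between libraries. Of the summed level per kilobase of the 10 genes, Tdrd1 made up 32.3% ± 0.651 in native and 31.6% ± 2.26 in sex-converted GV oocytes, and 9.57% ± 1.47 and 8.86% ± 2.57 at MII (SD, n = 2 each). Ddx4 went from 9.50% ± 0.705 and 12.8% ± 1.92 at GV to 54.2% ± 2.15 and 56.6% ± 3.49 at MII. The ratio of Ddx4 to Tdrd1 per kilobase was 0.275 to 0.426 in the 4 GV libraries and 4.96 to 8.39 in the 4 MII libraries. Against Tdrkh, which fell by less, it was 1.6 to 2.12 at GV and 9.27 to 11.7 at MII, and against Asz1 it was 0.819 to 1.83 and 3.49 to 4.54. These ratios show that the genes changed unequally under any scaling, and not that one of them was unchanged. The summed level itself was 171 to 216 CPM per kilobase at GV and 79.2 to 99.5 at MII.

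**Figure D3:**
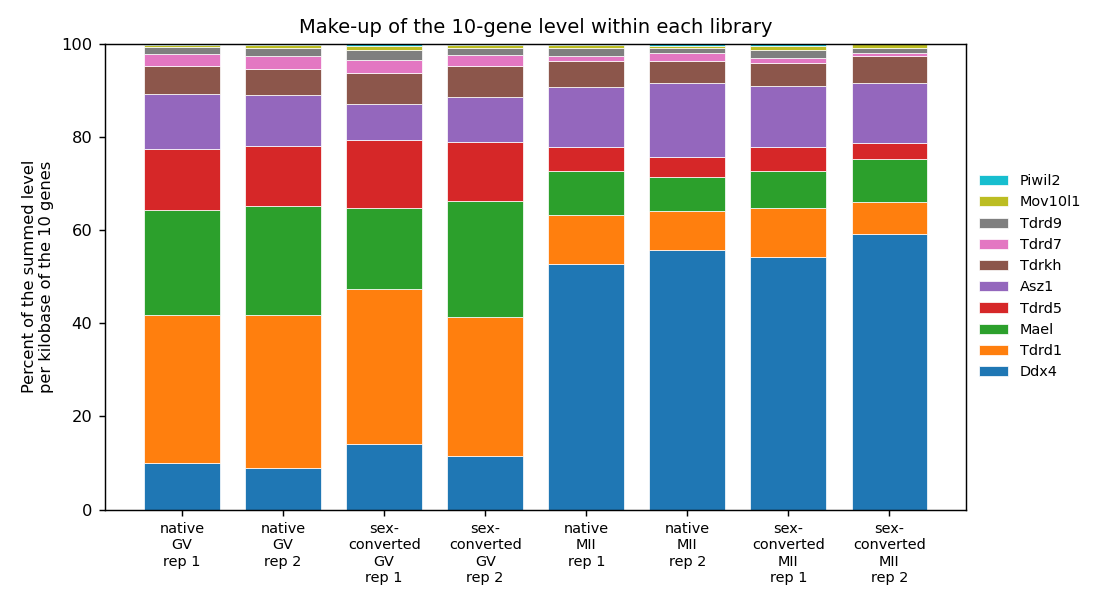
Percent of the summed level per kilobase of the 10 genes that each gene makes up, as stacked bars, 1 bar for each of the 8 libraries. Ddx4, at the bottom of each bar, takes 9.0% to 14.1% in GV libraries and 52.7% to 59.1% in MII libraries.

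No difference between the lines was called for any of the 10 genes at either stage by edgeR or by DESeq2. An unadjusted p under 0.05 in edgeR was found for 0 of the 10 at GV or at MII. Among all tested genes it was found for 319 at GV and 549 at MII. Of all 14929 genes tested, 0.0134% were called at each stage, 0.0067% higher and 0.0067% lower. The median absolute log2 fold change of sex-converted over native was 0.14 at GV and 0.28 at MII for the 10 genes, beside 0.19 and 0.23 for all tested genes. For Tdrd1 the log2 fold change was -0.15 at GV (95% interval -0.609 to 0.304) and 0.10 at MII (95% interval -0.372 to 0.573), so that a difference of 2-fold either way lies outside both intervals. The same holds for Tdrd5, Tdrkh, Mael and Ddx4. Ddx4 was at 0.29 (95% interval -0.161 to 0.749) and 0.30 (95% interval -0.154 to 0.753). Its libraries did not overlap between the lines at either stage, with the sex-converted ones higher, but this does not pass the test. At GV the sex-converted libraries also lay apart for Piwil2 (higher) and for Tdrd1, Tdrd7 and Asz1 (lower), and at MII for Mov10l1 (higher). The share of all tested genes without overlap was not counted, so this does not set any of these genes apart from the rest.

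For 5 genes an interval at 1 of the stages or both reached a 2-fold difference. Piwil2 had a log2 fold change of 0.91 at GV (95% interval -0.346 to 2.17) and -0.20 at MII (95% interval -1.68 to 1.27), and Mov10l1 had -0.14 (95% interval -0.981 to 0.71) and 0.61 (95% interval -0.341 to 1.56). For Asz1 at GV it was -0.50 (95% interval -1.05 to 0.0387), for Tdrd7 at MII -0.51 (95% interval -1.29 to 0.265), and for Tdrd9 at MII 0.32 (95% interval -0.432 to 1.06). For these genes the data do not settle whether the lines differed by as much as 2-fold. For the change from GV to MII, the interaction test of edgeR or DESeq2 called no difference between the lines for any of the 10 genes. Of these, 0 had an unadjusted p under 0.05 in edgeR, beside 329 of all 14929 tested genes, and 0% of all tested genes were called. The intervals of this difference reached 2-fold for Piwil2, Mov10l1, Asz1, Tdrd7 (-1.46 to 0.578), Mael (-0.411 to 1.36) and Tdrd9 (-0.814 to 1.21). For them a 2-fold difference in the change is not settled.

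**Figure D4:**
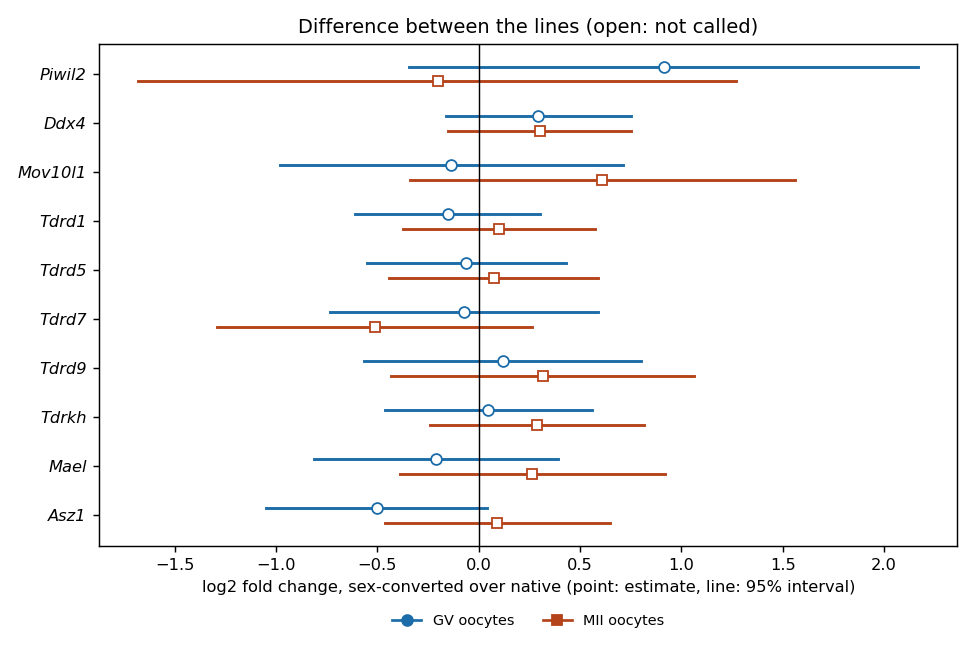
Log2 fold change of sex-converted over native oocytes at GV (circles) and MII (squares) for each gene, with 95% intervals from edgeR. All 20 intervals include 0, and those of Piwil2, from -0.346 to 2.17 at GV and from -1.68 to 1.27 at MII, are the widest.

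The rest of the pathway was read from a list of 31 further genes grouped by role. In the native line 5 of the 25 tested rose from GV to MII and 14 fell, and in the sex-converted line 6 rose and 12 fell. Of all tested genes 29.6% were called higher and 35.7% lower in the native line, and 29.3% and 36.2% in the sex-converted line. With library totals as the scaling the counts of the 25 were 4 higher and 16 lower, and 3 higher and 17 lower. On that scale 2488 of all 14929 tested genes were called higher and 7614 lower in the native line, and 2372 and 7785 in the sex-converted line. With TMM the median log2 fold change of the 25 was -0.92 and -0.57, beside -0.31 and -0.35 for all tested genes. The 6 genes that were not tested had few reads. The fetal testis PIWI gene Piwil4 had 0 to 4 reads per library, the piRNA transcription regulator Btbd18 0 to 5, Gtsf1l 0 to 7, Wdr77 0 to 8, Dnd1 0 to 9, and Nanos3 0 in all 8. A count of 0 in a library allows up to 3 reads, for counting error only. Wdr77 shares 1389 exon bases with Gm42890 on the same strand and 337 with the oppositely transcribed Atp5f1. Dnd1 shares 140 with the oppositely transcribed Wdr55. The low counts of Wdr77 and Dnd1 are therefore less certain, since the treatment of reads in such overlaps is not known.

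Of the other PIWI genes, Piwil1 (Miwi, the PIWI protein of round spermatids) was well above Piwil2, at 37.6 ± 7.25 CPM in native and 37.2 ± 0.104 CPM in sex-converted GV oocytes and at 24.0 ± 2.07 and 24.9 ± 4.14 CPM at MII (SD, n = 2 each). Per kilobase its level was 8.64 ± 1.66 CPM in native GV oocytes against 0.333 ± 0.113 for Piwil2. Piwil1 fell 1.57-fold in the native line (log2 fold change -0.65, SE 0.245, edgeR adjusted p = 0.0363), a call lost with RLE factors (adjusted p = 0.0505), in DESeq2 (0.0518), with the native libraries alone (0.0683) and without any of the 4 native libraries except GV replicate 1 (0.23, 0.151 and 0.0683) or without either sex-converted GV library (0.0581 and 0.06). In the sex-converted line its log2 fold change was -0.57 (edgeR adjusted p = 0.0577). There it was called lower among genes with a mean of at least 50 reads (edgeR adjusted p = 0.0231). The same held with a replicate block whose GV numbers were crossed between the lines (edgeR adjusted p = 0.0468). With library totals Piwil1 was called lower in both lines, at -1.56 (edgeR adjusted p = 0.000262) and -1.51 (edgeR adjusted p = 0.000327).

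Among other Tudor protein genes, Tdrd12, whose product is a helicase partner of Piwil2, fell with a log2 fold change of -3.75 in the native (edgeR adjusted p = 2.04e-06) and -3.55 in the sex-converted line (edgeR adjusted p = 2.86e-06), from 105 ± 1.74 to 7.71 ± 3.54 CPM in the native line. Tdrd3, which reads methylated arginines in many cell types, fell by 3.56 and 3.37. Rnf17 fell by 0.92 in the native line (edgeR adjusted p = 0.0114), a call that leaving out native GV replicate 1 removed (log2 fold change -0.46, edgeR adjusted p = 0.179), as did leaving out native MII replicate 1 (adjusted p = 0.0666). Its log2 fold change in the sex-converted line was -0.37 (edgeR adjusted p = 0.244), or -1.30 with library totals (edgeR adjusted p = 0.00125). Stk31 had -0.48 and -0.017, neither called, but with library totals it was called lower in both, at -1.39 (edgeR adjusted p = 0.000201) and -0.95 (edgeR adjusted p = 0.00228), and in the native line also among genes with a mean of at least 50 reads (edgeR adjusted p = 0.029). Tdrd6, a scaffold of the chromatoid body of spermatids, had 15 to 30 reads per library and was called higher in the sex-converted line (log2 fold change 1.37, edgeR adjusted p = 0.0496), where it became 2.03 without sex-converted GV replicate 1 (edgeR adjusted p = 0.0286), 0.93 without replicate 2 (edgeR adjusted p = 0.241) and 0.43 with library totals as the scaling (edgeR adjusted p = 0.515). The call was also lost in DESeq2 (adjusted p = 0.0936), with no filter (0.0728), under a replicate block (0.0711), with the sex-converted libraries alone (0.0544), without sex-converted MII replicate 1 (0.147) or 2 (0.112), and without native GV replicate 2 (0.0539) or native MII replicate 1 (0.0565) or 2 (0.0584).

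Of the 4 genes of piRNA maturation, 3 fell in both lines. Henmt1, which methylates the 3' end of piRNAs, fell by 3.42 in the native line (edgeR adjusted p = 1.23e-06) and by 3.73 in the sex-converted line (edgeR adjusted p = 8.92e-07), from 69.7 ± 10.5 to 6.49 ± 0.674 CPM in the former. Pnldc1, the trimmer nuclease, had 144 to 244 reads in GV libraries and 15, 2, 9 and 2 in MII libraries, with log2 fold changes of -4.12 and -3.66. The native value was -5.39 without native MII replicate 1, and the sex-converted value was -5.83 and -2.77 without sex-converted MII replicates 1 and 2. Exd1 fell by 2.02 and 2.13. Pld6 (Zucchini), the nuclease that makes piRNA 5' ends, was at 7.66 ± 5.08 CPM in native GV and 16.1 ± 0.627 CPM in native MII oocytes (SD, n = 2 each). Its log2 fold change was 1.08 in the native (edgeR adjusted p = 0.0514) and 0.70 in the sex-converted line (edgeR adjusted p = 0.181), and without native GV replicate 2 the native value was 1.98 (edgeR adjusted p = 0.00187). It was also called higher in the native line in DESeq2 (adjusted p = 0.0326), with RLE factors (0.0409), with no filter (0.0243), without sex-converted GV replicate 1 (0.0392) or 2 (0.0359) and with a block whose GV numbers were crossed between the lines (0.0122).

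Of the 6 tested cofactor genes 4 fell and 2 rose in both lines. Gtsf1, a zinc finger protein that lets PIWI proteins cut their targets, fell the most of all pathway genes. It had 2109 to 2725 reads in GV libraries and 72, 45, 68 and 9 in MII libraries, with log2 fold changes of -5.22 in the native (edgeR adjusted p = 1.23e-05) and -4.53 in the sex-converted line (edgeR adjusted p = 2.42e-05). Without native MII replicates 1 and 2 the native value was -7.12 and -4.51. Ddx25, a helicase gene of the chromatoid body, had log2 fold changes of -4.54 (edgeR adjusted p = 2.95e-05) and -3.95 (edgeR adjusted p = 6.29e-05), and the native one was -6.26 and -3.87 without native MII replicates 1 and 2. The chaperone gene Fkbp6 fell by 2.02 and 2.43. Gpat2 had 1 to 61 reads and log2 fold changes of -2.44 (edgeR adjusted p = 0.0293) and -2.57 (edgeR adjusted p = 0.0227). These were lost without native GV replicate 2 (-1.42, edgeR adjusted p = 0.237), native MII replicate 1 (-2.17) or 2 (-2.78), sex-converted GV replicate 1 (-2.10) or sex-converted MII replicate 2 (-1.68), and were -3.03 without native GV replicate 1 and -4.78 without sex-converted MII replicate 1.

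The 2 cofactor genes that rose were Tex19.1 and Gtsf2. Tex19.1, which restrains retrotransposons in germ cells and placenta, went from 90.6 ± 41.8 to 583 ± 38.4 CPM in the native and from 99.3 ± 47.0 to 575 ± 27.7 CPM in the sex-converted line (SD, n = 2 each). Its log2 fold changes were 2.69 (edgeR adjusted p = 5.8e-05) and 2.53 (edgeR adjusted p = 8.46e-05), the latter 3.13 without sex-converted GV replicate 1. Gtsf2, a relative of Gtsf1, went the other way from Gtsf1, from 11 to 31 reads at GV to 68 to 84 at MII, with log2 fold changes of 2.54 (edgeR adjusted p = 0.000492) and 2.69 (edgeR adjusted p = 0.000304). The native value was 3.27 without native GV replicate 1.

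Genes of nuclear silencing were mixed. Morc1 fell by 2.38 (edgeR adjusted p = 0.000232) and 1.54 (edgeR adjusted p = 0.00325). Tex15 fell by 1.37 (edgeR adjusted p = 0.00339) and 0.87 (edgeR adjusted p = 0.0333), with -0.75 in the native line without native GV replicate 1, and the sex-converted call was lost without sex-converted GV replicate 2 (adjusted p = 0.141) or sex-converted MII replicate 1 (0.131) or 2 (0.0878). Dnmt3l, the cofactor of DNA methylation in growing oocytes, was not called with 136 ± 26.9 CPM in native GV and 141 ± 3.15 CPM in native MII oocytes (SD, n = 2 each), but with library totals as the scaling it was called lower in the native (log2 fold change -0.86, edgeR adjusted p = 0.00447) and the sex-converted line (log2 fold change -1.03, edgeR adjusted p = 0.00157). Spocd1 had log2 fold changes of 0.33 and 0.23 and Dnmt3c, a rodent copy of Dnmt3b whose reads may be shared with it, 0.24 and 0.44, none of them called, although Spocd1 in the sex-converted line was at -0.70 (edgeR adjusted p = 0.034) with library totals.

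Both tested transcription factor genes of piRNA precursors rose. Mybl1 (A-Myb), the activator of piRNA genes in meiotic spermatocytes, went from 7.36 ± 0.855 to 198 ± 21.1 CPM in the native line and from 12.3 ± 3.71 to 220 ± 11.3 CPM in the sex-converted line (SD, n = 2 each). Its log2 fold change was 4.74 (SE 0.268, edgeR adjusted p = 4.12e-07) and 4.16 (SE 0.258, edgeR adjusted p = 5.99e-07), the largest rise among the tested genes of the list in both lines, and 99.6% of all tested genes had a log2 fold change at or below it in the native line. Between the lines at GV it was the 1 gene of the 25 with an unadjusted p under 0.05 (log2 fold change 0.74, 95% interval 0.202 to 1.28, edgeR adjusted p = 1). Among all 14929 tested genes 319 had an unadjusted p under 0.05 there. Tcfl5 rose by 1.78 (edgeR adjusted p = 0.000441) and 1.28 (edgeR adjusted p = 0.00337). It shares 234 exon bases with the oppositely transcribed Col9a3, which had 113 to 408 reads, so its reads are less certain if strand was not used in counting.

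Prmt5, the enzyme that methylates arginines of PIWI proteins, fell by 3.37 (edgeR adjusted p = 4.61e-05) and 2.80 (edgeR adjusted p = 0.000129), the latter -3.40 without sex-converted MII replicate 1. Nanos2, an RNA-binding protein best known from male germ cells, rose by 0.92 in the native (edgeR adjusted p = 0.00763) and 1.13 in the sex-converted line (edgeR adjusted p = 0.00223). The native call was lost without native MII replicate 1 (log2 fold change 0.72, edgeR adjusted p = 0.0675). With library totals Nanos2 was at 0.0043 and 0.19, and Tcfl5 at 0.87 (edgeR adjusted p = 0.0274) and 0.35 (edgeR adjusted p = 0.323), so only Mybl1, Tex19.1 and Gtsf2 of the pathway genes that rose were called higher in both lines under both scalings.

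**Figure D5:**
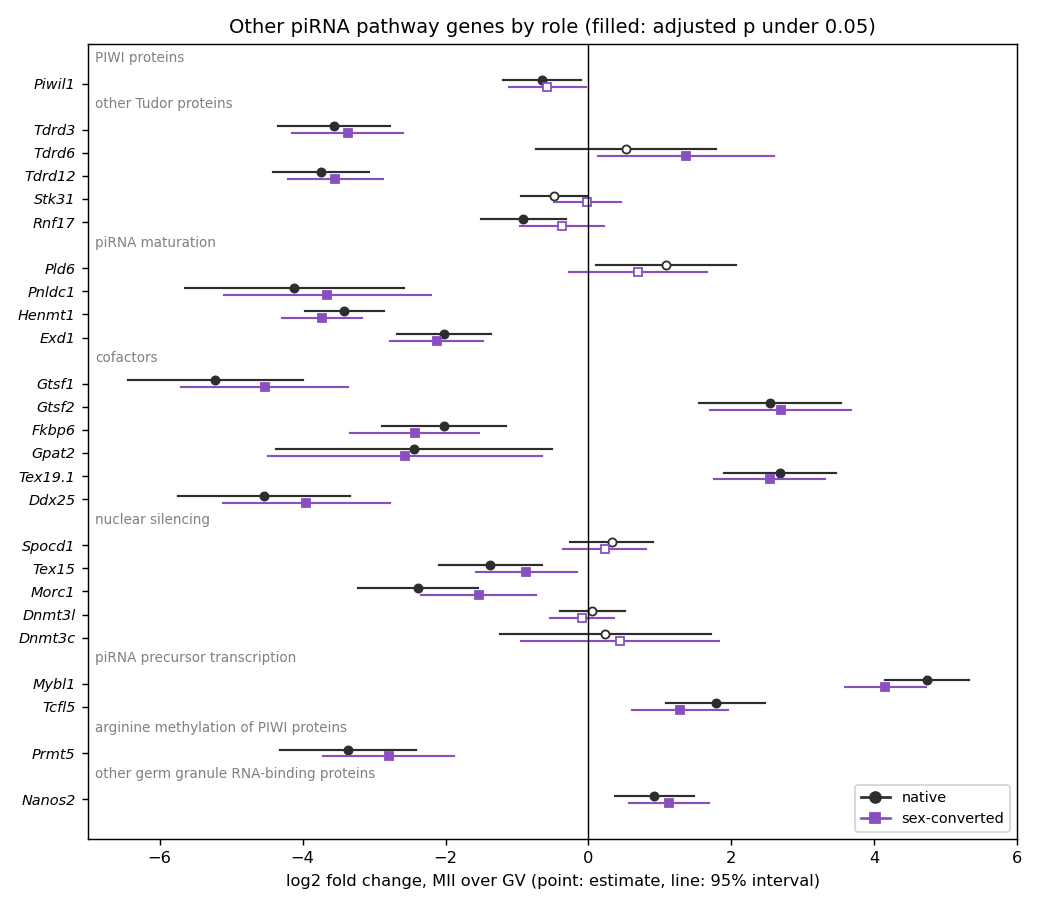
Log2 fold change of MII over GV for the 25 tested genes of the wider list, grouped by role, in the native (circles) and sex-converted (squares) lines with 95% intervals from edgeR, filled where called. Gtsf1, at -5.22 and -4.53, and Mybl1, at 4.74 and 4.16, mark the ends of the range.

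The promoters of the genes were examined for what the falling and rising genes share. Germline genes are often kept silent in somatic cells through CpG-rich promoters that carry an E-box, CACGTG, or an E2F-type site, TCCCGC, which are letters bound by subunits of a Polycomb repressor complex. In windows from 250 bases before to 50 bases after the start (RefSeq, GRCm38.p6), 9 of the 10 genes had an entry. CACGTG, which reads the same on both strands, was in 7.15% of 32851 promoters of all genes, and TCCCGC or its complement GCGGGA in 20.0%. CACGTG was found in Tdrd1, Tdrd9, Mael, Ddx4 and Mov10l1, and TCCCGC in Tdrd5, Mael and Ddx4. A gene is listed here if any of its entries held the motif, whereas the percentages are per promoter, with 32851 promoters of 27025 genes. The list and the percentages are thus in different units. Both were found in Mael and Ddx4, beside 1.99% of all promoters. The promoters of Tdrd1 and Ddx4 are given because they belong to the gene that fell most and the one that rose. Capitals mark CACGTG in both sequences and GCGGGA, the complement of TCCCGC, in that of Ddx4 alone.
Tdrd1: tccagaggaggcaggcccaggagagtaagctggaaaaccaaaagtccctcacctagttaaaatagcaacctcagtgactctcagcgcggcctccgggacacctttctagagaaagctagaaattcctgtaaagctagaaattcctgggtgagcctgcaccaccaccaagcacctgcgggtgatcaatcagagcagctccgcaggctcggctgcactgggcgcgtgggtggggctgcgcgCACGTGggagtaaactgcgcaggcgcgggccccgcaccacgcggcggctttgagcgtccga
Ddx4: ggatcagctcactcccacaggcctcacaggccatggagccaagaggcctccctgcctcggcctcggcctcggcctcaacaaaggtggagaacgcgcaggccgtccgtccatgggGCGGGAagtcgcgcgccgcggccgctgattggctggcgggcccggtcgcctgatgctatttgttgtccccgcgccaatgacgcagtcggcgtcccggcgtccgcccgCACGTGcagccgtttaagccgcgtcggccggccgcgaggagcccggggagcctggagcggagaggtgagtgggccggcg
They lie at chr19:56825959-56826258 on the plus strand and chr13:112652261-112652560 on the minus strand. The E-box starts at -11 in Tdrd1 and at -29 in Ddx4, counted from the start site. Tdrd1 has further entries, and the first is shown. Its entry at chr19:56830462-56830761 lacks the E-box and holds 3 CpG. The windows hold 20 and 38 CpG, beside a median of 7 over all promoters. Genes that moved in opposite directions thus shared the E-box, and a match is a description of these letters and not of binding.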

How the data were processed

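Polyadenylated RNA of pooled oocytes was sequenced in 8 libraries with a directional kit, as single reads of 75 bases. The authors deposited raw counts per gene, and the submitters' processing notes name Trimmomatic 0.38, HISAT2 2.1.0, featureCounts 2.0.0, DESeq2 1.30.1 and the mm10 genome. Not given in the sources used here: annotation release, strand setting, and treatment of reads that map to several places. Of 55385 genes, 55144 were matched by identifier to GENCODE M21, and the 241 others held 0.00326% of reads.

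Testing of the counts used edgeR 4.0.16 (R 4.3.3, limma 3.58.1): filterByExpr, TMM factors (1.328 to 1.431 at GV, 0.7136 to 0.7326 at MII), 1 quasi-likelihood fit of all 8 libraries with a coefficient per group, 4 residual degrees of freedom, two-sided tests, and Benjamini-Hochberg adjustment over 14929 genes. Intervals are 95% intervals of the fit. Levels per kilobase used the union of annotated exons. DESeq2 1.42.0, RLE factors, library totals, other filters, a replicate block, smaller fits and leaving out each library were tried as alternatives. All 10 genes are named, with the tested genes of the wider list by role and the 3 genes nearest in pattern to Tdrd1. The genes, lists and tests were chosen with earlier results of these data known. Log2 CPM of replicate libraries correlated at 0.953 to 0.986 across genes, which are not independent replicates. Precision at low counts is limited by 2 libraries a group.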

Additional observations from a re-analysis of the deposited data

How the results depend on the processing

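The number of the 10 genes called between the stages was 9 in the native line and 7 to 9 when a library was left out, and 8 in the sex-converted line and 7 to 8 when a library was left out. With all libraries, 65.2% of all tested genes were called between the stages in the native and 65.5% in the sex-converted line. Between the lines, and for the difference in stage change, the number of the 10 genes called was 0 under every alternative run. Of 159 log2 fold changes of the 10 genes under alternatives, 154 kept direction and call in the native line and 5 lost the call, and in the sex-converted line 151 kept both, 6 lost the call and 2 gained it. None of these reversed. In the wider list, with library totals as the scaling, Dnmt3l in the native line turned to -0.86 and Spocd1 in the sex-converted line to -0.70, which follows the shift of the median of all genes by -0.908 and -0.933. With the length of the longest transcript in place of all exons, the share of Tdrd1 at GV was 29.1% in the native and 28.5% in the sex-converted line, and that of Ddx4 at MII 50% and 52.6%.

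A block for the replicate number left 9 of the 10 genes called in the native line and 7 in the sex-converted line, where Piwil2 was lost. Under it, of all 14929 tested genes 4202 were called higher and 5086 lower in the native line. In the sex-converted line these were 4201 and 5149. The numbers did not pair the libraries, since deviations of same-numbered libraries correlated at -0.751 to 0.242. With the GV numbers crossed between the lines, chosen after seeing the data, the counts of the 10 genes were 9 and 8. Of all tested genes 4568 were then called higher and 5502 lower in the native line, and 4587 and 5587 in the sex-converted line. Few reads limit what can be said of Piwil2, Mov10l1, Tdrd6 and Gpat2.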
